A study of Drosophila melanogaster with 4 samples.

Results

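INE-1 was the transposon family with the most annotated insertions in these data (2234 of 5416, where the next family, the 1360 element, had 303), and 641 of these were counted in larval brains of *Drosophila melanogaster* with a total of at least 10 counts over 4 RNA sequencing libraries. An insertion was taken as INE-1 where its FlyBase symbol starts with INE-1{}, and the 641 insertions are those that reached the 10-count minimum. A further 339 insertions had 1 to 9 counts and 1254 had none. The 641 insertions held 90921 of the 92219 counts on INE-1. At the minimum itself, 21 insertions had exactly 10 counts and 19 had exactly 9. INE-1{}1746, in an intron of *bin3*, had 4 and 0 counts in the libraries labelled *orb2* RNAi, against 0 and 6 in those labelled *white* RNAi, and was just inside it. INE-1{}2879, an intergenic copy, had 1 and 8 counts in the libraries labelled *orb2* RNAi, against 0 and 0 in those labelled *white* RNAi, and was just outside.

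INE-1 elements are short DNA transposons of the Helitron type that encode no protein of their own and depend on other elements to move. In *Drosophila melanogaster* they are old, fixed remnants that are common in the heterochromatin around the centromeres and along the small, largely heterochromatic chromosome 4. Many sit inside introns, where they are transcribed with the unspliced RNA of the host gene and removed by splicing.

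The study asked how mRNAs rich in rarely used codons come to be expressed as neural stem cells become neurons. It reported that Orb2, an RNA-binding protein that regulates translation, raises the stability of such mRNAs in neurons. Its RNA sequencing compared brains under RNAi against *orb2* with control brains. Hairpins against *orb2* or against the eye color gene *white*, the control, were expressed with *insc*-GAL4, a driver active in neuroblasts, the neural stem cells, and in their progeny. RNA was taken from whole brains of wandering third-instar larvae (WL3), pooled to 60 brains per replicate, and polyA RNA was sequenced. There were 2 libraries labelled *orb2* RNAi and 2 labelled *white* RNAi, and every value below is from these 4. Since each library is a pool of animals, p-values measure the spread between 2 pools per genotype. In whole brains, fewer cells of a type and less RNA per cell cannot be told apart.

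The target was checked first. *orb2* had 105.3 and 53.6 CPM (counts scaled to a library size adjusted by the trimmed mean of M values, TMM) in the libraries labelled *orb2* RNAi, against 17.1 and 15.3 CPM in those labelled *white* RNAi, which goes against the labels. Directions below therefore follow the labels only. The *white* gene itself had 120.6 and 93.8 CPM in the libraries labelled *orb2* RNAi, against 110.7 and 184.7 CPM in those labelled *white* RNAi, which overlapped. Neither gene passed edgeR's adjusted test. The libraries held from 34610836 to 75412298 counts. Summed neuron markers (all 7 detected) ran from 2466 to 2702 CPM in the libraries labelled *orb2* RNAi and from 1775 to 3393 CPM in those labelled *white* RNAi, with replicate 2 of *white* RNAi the lowest. Summed muscle markers (5 of 5 detected) were 491 and 464 CPM in the libraries labelled *orb2* RNAi, against 115.1 and 250.3 CPM in those labelled *white* RNAi. None of these 5 muscle genes passed edgeR's adjusted test, and *Mlc2* overlapped between the labels. Summed salivary gland markers were 84.9 and 986 CPM in the libraries labelled *orb2* RNAi, against 16.9 and 95.5 CPM in those labelled *white* RNAi, and summed fat body markers were 376 and 2045 CPM in the libraries labelled *orb2* RNAi, against 3544 and 136 CPM in those labelled *white* RNAi. The fat body genes went different ways. *Fbp1* had 291 and 63.3 CPM in the libraries labelled *orb2* RNAi, against 2809 and 73.7 CPM in those labelled *white* RNAi. For *Lsp1beta* these were 72.8 and 1875 CPM, against 605 and 52.3 CPM, and for *Lsp2* 11.9 and 107 CPM, against 131 and 9.79 CPM. The part of muscle, salivary gland and fat body in the INE-1 values was not tested.

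The insertions with counts were concentrated on chromosome 4. Of the 344 INE-1 copies annotated there, 218 (63.4%) reached 10 counts, and these 218 held 55.7% of the counts of all 641. Off chromosome 4, 423 of 1890 copies (22.4%) did so. Chromosome 4 carries 256 copies per Mb of annotated sequence, against 14.3 per Mb on the other chromosomes. The next largest set was on 2R, with 149 of 500 copies, followed by 89 of 392 on 3L, 72 of 399 on 2L, 64 of 361 on X and 49 of 238 on 3R. On the arms, 53.4% of the counted insertions lay in the fifth of the arm nearest to the centromere, against 49.9% of all copies. This share was higher among counted insertions than among all copies on 3R (79.6%, against 52.9%), 3L (70.8%, against 55.1%) and 2R (26.2%, against 18.0%), but not on 2L (73.6%, against 74.2%) or X (32 of 64 insertions, against 59.6% of all copies).

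**Figure D1:**
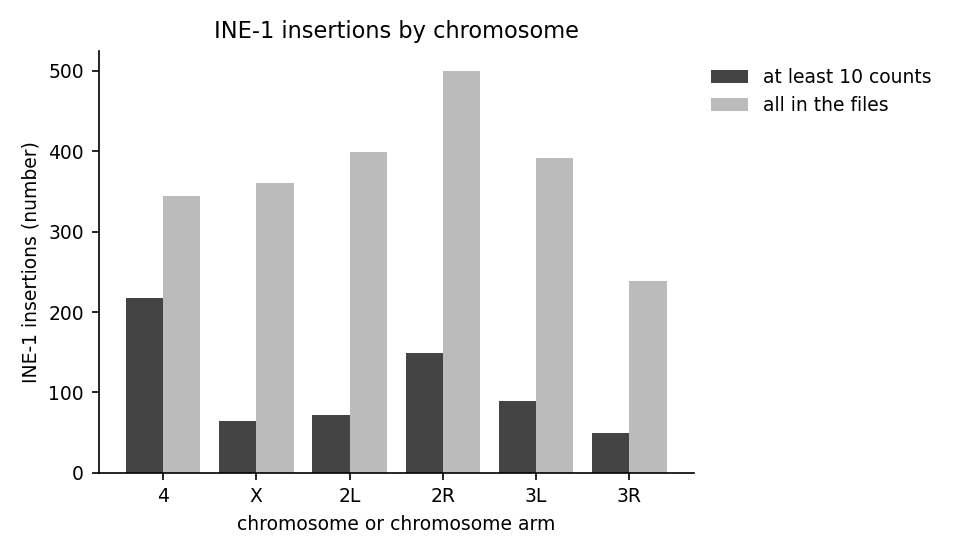
Number of INE-1 insertions with at least 10 counts (dark bars) and of all annotated INE-1 insertions (light bars) on each chromosome or arm. On chromosome 4, 218 of 344 insertions were counted, a larger share than on any other arm, where the shares ran from 17.7% on X to 29.8% on 2R.

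Most of the counted insertions were intronic. By position against the annotated genes (BDGP6.54), 470 of the 641 (73.3%) lay inside a gene without touching an exon, 153 (23.9%) lay outside genes, and 18 (2.81%) shared at least 1 base with an exon of another gene. The intronic insertions held 83.6% of the counts. Among all annotated copies, 42.4% of 1108 intronic copies, 15.6% of 979 intergenic copies and 12.2% of 147 exonic copies reached 10 counts. An intronic insertion was at a median of 390 bases from the nearest exon, and 346 of the 470 were within 1000 bases of one. An intergenic insertion was at a median of 391 bases from the nearest gene, and copies within 1000 bases of a gene were counted more often (107 of 465, 23.0%) than those farther away (46 of 514, 8.95%).

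The exonic copies had the fewest counts, and whether they had any followed how far the exon covered them. Of the 147 exonic copies, 103 lay wholly within exons and each of these 103 had 0 counts in all 4 libraries. The 18 exonic insertions that were counted each had some bases outside exons. They touched a 3′ UTR in 7 cases, a 5′ UTR in 4 and coding sequence in 3, and the host was a noncoding gene in 6. How the counting program treated a read that lies on 2 features at once is not given in the sources used here, and its part in these zeros was not tested.

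INE-1{}2485 (2R, 5259068 to 5259406) has 46.3% of its bases in the 5′ UTR of *d4* and had 102 and 43 counts in the libraries labelled *orb2* RNAi, against 39 and 57 in those labelled *white* RNAi. INE-1{}2145 (3L, 9439811 to 9440208) overlaps the 3′ UTR of *Nf-YA*, a subunit of the CCAAT-binding factor NF-Y, and had 119 and 61 counts in the libraries labelled *orb2* RNAi, against 46 and 13 in those labelled *white* RNAi. INE-1{}6123 (2L, 22132151 to 22132702) overlaps the noncoding gene *lncRNA:CR43241* and had 34 and 37 counts in the libraries labelled *orb2* RNAi, against 21 and 93 in those labelled *white* RNAi. Of these 3, the exonic insertions with the highest mean level, only INE-1{}2145 had both libraries labelled *orb2* RNAi above both labelled *white* RNAi, and its log2 fold change of 1.21 ± 0.94 (SE) did not pass edgeR's quasi-likelihood test (adjusted p = 1.00).

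Longer copies were counted more often. The median length of the 641 insertions was 235 bases (33 to 4672), against 127 bases for the copies below 10 counts. The share that was counted was 17.9% for copies under 100 bases, 27.7% from 100 bases, 43.1% from 300 bases and 45.2% from 600 bases. Copies that lie in the same orientation as their host were counted in 282 of 632 cases (44.6%) and copies in the opposite orientation in 188 of 476 (39.5%). The median level of the counted ones was 1.07 CPM per kb in the same orientation and 1.15 CPM per kb in the opposite one. Counts of an intronic copy were thus found in either orientation. Whether reads were counted by strand is not given in the sources used here.

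The counts were spread unevenly over the 641 insertions. The median insertion had 43 counts in all, the highest had 6231, and 43 insertions held 50% of the counts. By mean CPM, the 10 highest, which ran from 14.8 to 42.1 CPM per kb, included 3 in introns of *CaMKII*, the calcium- and calmodulin-dependent protein kinase of synaptic plasticity, on chromosome 4. INE-1{}3381 (4, 1038710 to 1039810, 1101 bases, plus strand, opposite to its host) had 1951 and 1491 counts in the libraries labelled *orb2* RNAi, against 2457 and 332 in those labelled *white* RNAi. On the TMM scale this was 25.6 and 26.1 CPM in the libraries labelled *orb2* RNAi, against 39.3 and 10.1 CPM in those labelled *white* RNAi. The libraries labelled *white* RNAi thus lay on either side of those labelled *orb2* RNAi. Its neighbour INE-1{}3385 (4, 1042174 to 1042714, minus strand) had 943 and 565 counts in the libraries labelled *orb2* RNAi, against 931 and 83 in those labelled *white* RNAi. INE-1{}3388 (4, 1042789 to 1042985, minus strand) had 573 and 475 counts in the libraries labelled *orb2* RNAi, against 773 and 163 in those labelled *white* RNAi. All 3 had their lowest level in replicate 2 of *white* RNAi and their highest in replicate 1 of *white* RNAi, and *CaMKII* itself had 487 and 447 CPM in the libraries labelled *orb2* RNAi, against 514 and 419 CPM in those labelled *white* RNAi.

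The other intronic insertions of the top 10 lay in *PMCA*, a calcium pump of the plasma membrane, *nrm*, a cell adhesion protein, *gus*, *pan*, the transcription factor of Wnt signalling, and *Cadps*, which acts in the release of dense-core vesicles. INE-1{}5345 (4, 332341 to 332772), in *PMCA*, had 8.89 and 7.62 CPM in the libraries labelled *orb2* RNAi, against 8.79 and 4.73 CPM in those labelled *white* RNAi. INE-1{}3227 (3L, 23036067 to 23036402), in *nrm*, had 6.59 and 8.01 CPM in the libraries labelled *orb2* RNAi, against 9.96 and 3.60 CPM in those labelled *white* RNAi. INE-1{}4169 (4, 103201 to 103648), in *pan*, had 10.95 and 7.22 CPM in the libraries labelled *orb2* RNAi, against 7.19 and 1.16 CPM in those labelled *white* RNAi. The *pan* copy was the only one of the top 10 with both libraries labelled *orb2* RNAi above both labelled *white* RNAi. INE-1{}3979 (4, 1234105 to 1234445), in *Cadps*, had 6.316 and 5.263 CPM in the libraries labelled *orb2* RNAi, against 8.44 and 6.28 CPM in those labelled *white* RNAi. The copies in *gus*, INE-1{}2086 (2R, 5117941 to 5118216) and INE-1{}2087 (2R, 5119303 to 5119554), ran between 4.44 and 9.45 CPM, and neither had its lowest level in replicate 2 of *white* RNAi.

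INE-1{}4180 (X, 16547765 to 16548142, plus strand) was the highest intergenic insertion, 148 bases from *Arp2*, which encodes a subunit of the actin-nucleating Arp2/3 complex. It had 486 and 290 counts in the libraries labelled *orb2* RNAi, against 325 and 318 in those labelled *white* RNAi, which was 6.38 and 5.07 CPM in the libraries labelled *orb2* RNAi, against 5.19 and 9.70 CPM in those labelled *white* RNAi. Unlike the copies in *CaMKII*, it was highest in replicate 2 of *white* RNAi. INE-1{}3974 (4, 1224603 to 1224953), 136 bases from *Dyrk3*, had 4.24 and 3.11 CPM in the libraries labelled *orb2* RNAi, against 3.04 and 3.93 CPM in those labelled *white* RNAi. INE-1{}4179 (X, 16541482 to 16541977), 147 bases from *CG9902*, had 4.25 and 3.60 CPM in the libraries labelled *orb2* RNAi, against 4.17 and 2.29 CPM in those labelled *white* RNAi. With at least 100 counts in every library, INE-1{}3974, INE-1{}3979 and INE-1{}5345 had the most even levels of 11 such insertions.

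**Figure D2:**
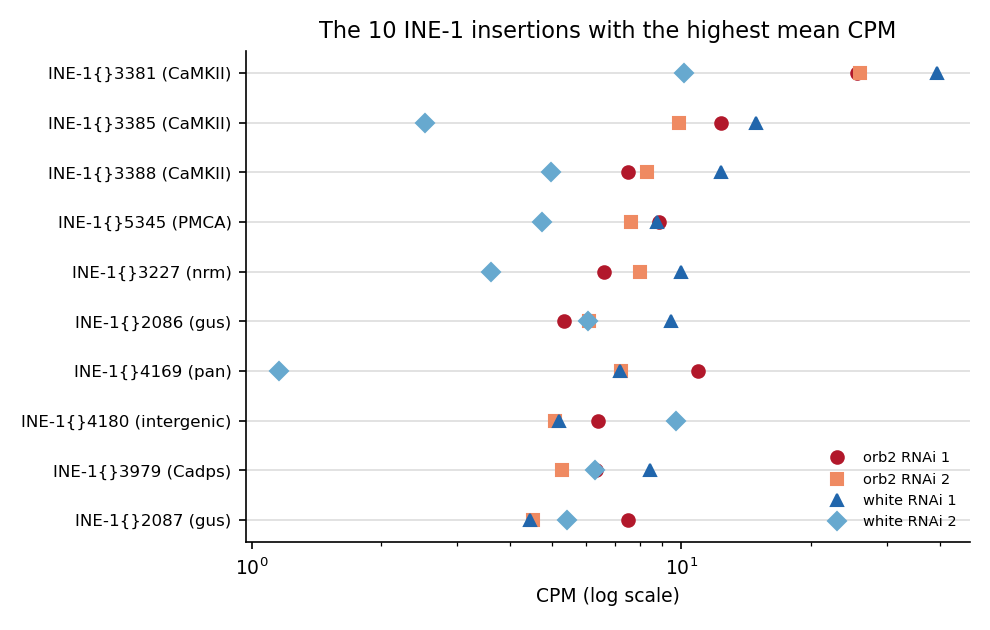
CPM (log scale) of the 10 INE-1 insertions with the highest mean level in each of the 4 libraries, with the host gene in parentheses. Replicate 2 of *white* RNAi is the lowest of the 4 libraries for INE-1{}3381, INE-1{}3385, INE-1{}3388, INE-1{}5345, INE-1{}3227 and INE-1{}4169 and the highest for the intergenic INE-1{}4180.

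The sums over location also differed in their order of libraries. The 470 intronic insertions summed to 346 and 296 CPM in the libraries labelled *orb2* RNAi, against 428 and 183 CPM in those labelled *white* RNAi. The 153 intergenic insertions summed to 59.8 and 52.1 CPM in the libraries labelled *orb2* RNAi, against 62.3 and 54.9 CPM in those labelled *white* RNAi. By summed level, replicate 2 of *white* RNAi was the lowest library for intronic copies but not for intergenic ones. The intergenic order rests on INE-1{}4180, which held 9.70 CPM in that library. It held 5.19 CPM in replicate 1 of *white* RNAi, and 6.38 and 5.07 CPM in the libraries labelled *orb2* RNAi. The ratio of intronic to intergenic sums was 3.33 in replicate 2 of *white* RNAi, against 5.68 to 6.86 in the other 3 libraries. By the share of insertions with any count, replicate 2 of *white* RNAi was the lowest library for both kinds alike, at 34.5% of intronic and 34.6% of intergenic insertions. Replicate 2 of *white* RNAi had the lowest level, ties counted, for 368 of the 470 intronic insertions (78.3%), of which 308 were at 0 there, and for 107 of the 153 intergenic insertions (69.9%), of which 100 were at 0. With at least 10 counts, it was also the lowest for 57.5% of 1530 other transposon insertions and 45.8% of 11538 protein-coding genes. Among insertions with counts in all 4 libraries, it was the lowest for 60 of 118 intronic and 7 of 33 intergenic ones. For other features with counts in all 4 libraries, it was the lowest for 500 of 1071 other transposon insertions and 3526 of 9260 protein-coding genes. The 18 exonic insertions summed to 8.99 and 6.59 CPM in the libraries labelled *orb2* RNAi, against 6.19 and 6.80 CPM in those labelled *white* RNAi.

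The host genes moved in the same order but less. The exon counts of the 196 protein-coding hosts summed to 32865 and 30761 CPM in the libraries labelled *orb2* RNAi, against 35674 and 25561 CPM in those labelled *white* RNAi. Intronic INE-1 counts per 1000 CPM of their hosts were 10.5 and 9.58 in the libraries labelled *orb2* RNAi, against 12.0 and 7.13 in those labelled *white* RNAi. The 1530 other transposon insertions with at least 10 counts were highest in that library, with 7313 and 8209 CPM in the libraries labelled *orb2* RNAi, against 7971 and 10414 CPM in those labelled *white* RNAi. A single *roo* insertion held 1810 CPM of that library, and without it the sums were 7174 and 8127 CPM in the libraries labelled *orb2* RNAi, against 7661 and 8604 CPM in those labelled *white* RNAi.

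**Figure D3:**
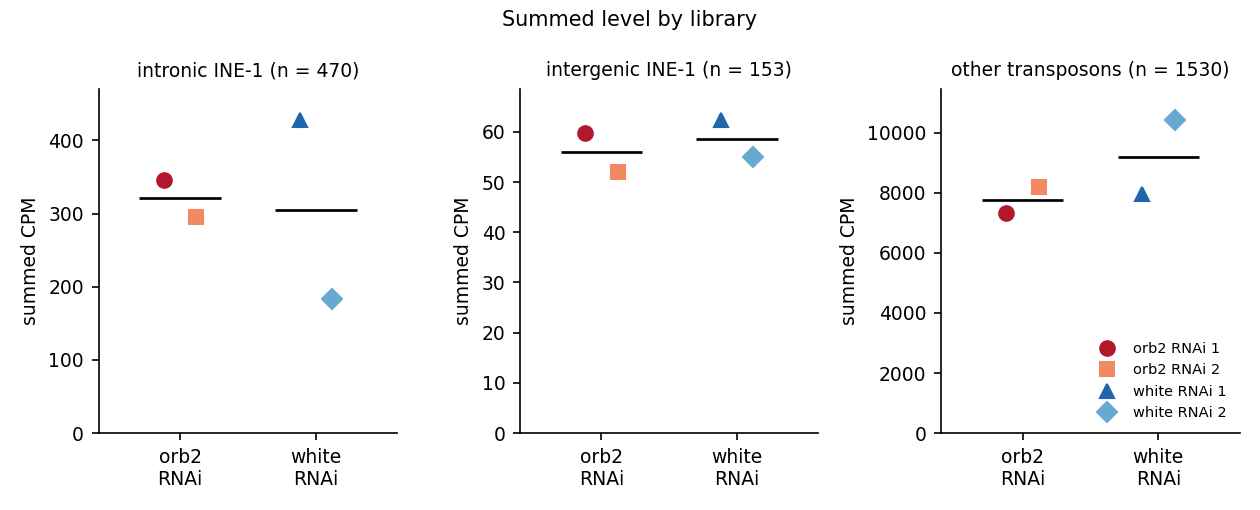
Summed CPM of intronic INE-1 insertions, intergenic INE-1 insertions and other transposon insertions in each library, each axis starting at 0, with the group mean as a line (2 libraries per group). For intronic INE-1 the libraries labelled *white* RNAi, at 428 and 183 CPM, lie on either side of those labelled *orb2* RNAi, at 346 and 296 CPM, while the 4 intergenic sums lie between 52.1 and 62.3 CPM.

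Over all 641 insertions, the libraries labelled *orb2* RNAi held 31596 and 20274 INE-1 counts, against 31032 and 8019 in those labelled *white* RNAi. This was 0.0419% (95% Wilson interval 0.0414 to 0.0424) and 0.0363% (0.0358 to 0.0368) of the counts in the libraries labelled *orb2* RNAi, against 0.0505% (0.04996 to 0.0511) and 0.0232% (0.0227 to 0.0237) in those labelled *white* RNAi. These intervals cover counting error only, and reads are not independent molecules. The summed level averaged 385 ± 42.7 CPM in the libraries labelled *orb2* RNAi and 370 ± 178 CPM in those labelled *white* RNAi (SD, n = 2 each). The difference of the mean log2 sums was 0.14, and an exact two-sided permutation test over the 4 libraries gave p = 1, where the smallest p that 2 against 2 libraries allow is 0.333. Without replicate 1 of *white* RNAi the difference was 0.66, and without replicate 2 it was −0.37. Chromosome 4 insertions summed to 227 and 208 CPM in the libraries labelled *orb2* RNAi, against 282 and 118 CPM in those labelled *white* RNAi, and the 423 on other chromosomes to 188 and 147 CPM in the libraries labelled *orb2* RNAi, against 214 and 127 CPM in those labelled *white* RNAi.

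How many insertions had any count differed more than the sums. Of the 641, 559 and 548 had a count in the libraries labelled *orb2* RNAi, against 430 and 222 in those labelled *white* RNAi. Thinned to the depth of the smallest library, with reads taken as independent, 548 and 531 would be expected in the libraries labelled *orb2* RNAi, against 427 and 222 in those labelled *white* RNAi. The part of depth and of repeated reads of a molecule in these numbers was not tested. Yet an insertion that was detected had a median of 20 and 12 counts in the libraries labelled *orb2* RNAi, against 31 and 20 in those labelled *white* RNAi. The libraries labelled *white* RNAi thus had fewer insertions with any count, but not smaller counts where there were any. These medians are raw counts. An insertion absent from some libraries had to reach the 10-count minimum in the rest, and the part of this in the medians was not tested. Counts were present in all 4 libraries for 157 insertions, 193 were at 0 only in replicate 2 of *white* RNAi, 153 were at 0 in both libraries labelled *white* RNAi and 36 were at 0 in both labelled *orb2* RNAi. The 10-count minimum is a sum, so these 153 and 36 reached it through 1 label only. Shares at 0 in both libraries of a label were not taken over all features. Of INE-1 insertions with 10 to 49 counts, 21.8% and 25.1% were at 0 in the libraries labelled *orb2* RNAi, against 56.9% and 83.5% in those labelled *white* RNAi. For protein-coding genes of that range these were 27.0% and 30.0%, against 72.4% and 83.9%.

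The zeros reached into well-counted insertions. Of the 96 insertions with at least 200 counts, 18 were at 0 in replicate 2 of *white* RNAi and none was at 0 in another library. INE-1{}4007, in *Cadps*, had 427 and 114 counts in the libraries labelled *orb2* RNAi, against 311 and 0 in those labelled *white* RNAi, and INE-1{}4114, in *Tsp39D*, had 184 and 156 counts in the libraries labelled *orb2* RNAi, against 226 and 0 in those labelled *white* RNAi (both chosen after their values were seen). A count of 0 in replicate 2 of *white* RNAi allows up to 3 counts, or 0.0915 CPM. Among the 90 insertions with from 100 to under 200 counts, 0 were at 0 in either library labelled *orb2* RNAi, against 4 and 38 in those labelled *white* RNAi. Other features had zeros as well. Of the features with at least 200 counts, 18.8% of INE-1 insertions were at 0 in replicate 2 of *white* RNAi, against 2.53% of 790 other transposon insertions and 2.22% of 9207 protein-coding genes. That range has no upper limit, and the kinds of feature in it were not matched for level. From 100 to under 200 counts, the shares at 0 in that library were 42.2% of INE-1 insertions, 17.1% of other transposon insertions and 41.3% of protein-coding genes. Of 583 protein-coding genes with from 100 to under 200 counts, 36 and 9 were at 0 in the libraries labelled *orb2* RNAi, against 134 and 241 in those labelled *white* RNAi, and of 175 other transposon insertions 2 and 1 were at 0 in the libraries labelled *orb2* RNAi, against 5 and 30 in those labelled *white* RNAi.

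**Figure D4:**
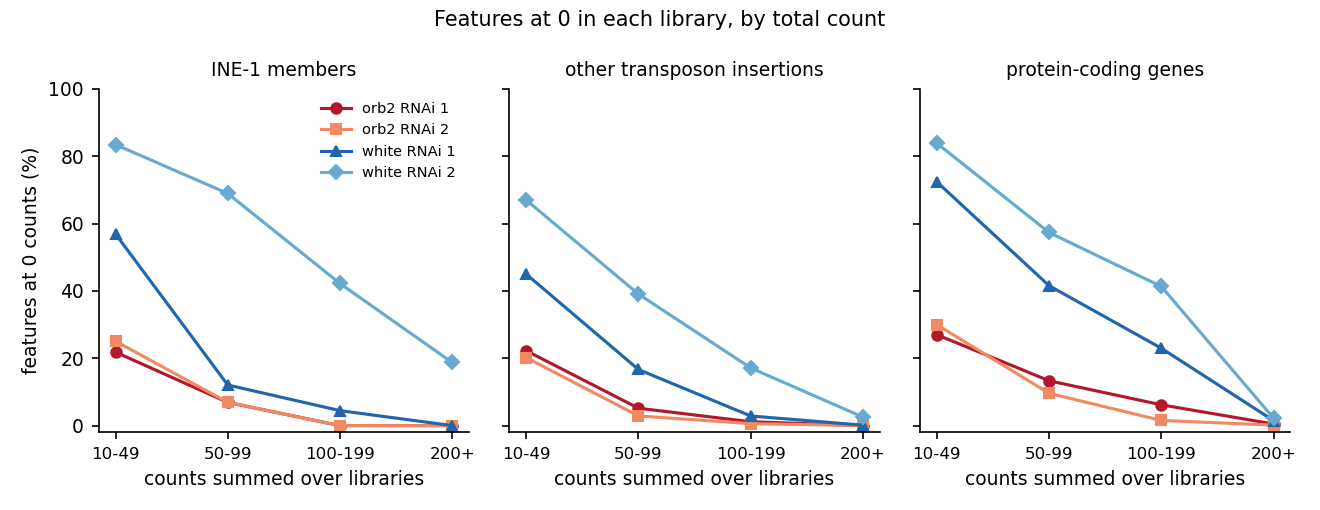
Share of features (%) at 0 counts in each library, for INE-1 insertions, other transposon insertions and protein-coding genes grouped by the sum of their counts over the 4 libraries. Both libraries labelled *white* RNAi have more zeros than those labelled *orb2* RNAi in the 3 lower ranges of all 3 kinds of feature. In the range that starts at 100 counts, 42.2% of INE-1 insertions, 17.1% of other transposon insertions and 41.3% of protein-coding genes are at 0 in replicate 2 of *white* RNAi.

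Counts of a single library made up all or most of some insertions. INE-1{}5923, in an intron of *CG44102*, had 0 and 0 counts in the libraries labelled *orb2* RNAi, against 60 and 0 in those labelled *white* RNAi. INE-1{}6211, 933 bases from *Strica*, had 0 and 0 counts in the libraries labelled *orb2* RNAi, against 50 and 0 in those labelled *white* RNAi. INE-1{}3202 and INE-1{}5263, both intergenic, had 58 and 56 counts in replicate 1 of *white* RNAi, and of the other 3 libraries only replicate 1 of *orb2* RNAi had any, 7 and 6. INE-1{}5800, in *Src42A*, a tyrosine kinase, had 0 and 1 counts in the libraries labelled *orb2* RNAi, against 7 and 48 in those labelled *white* RNAi. For these 5 the library with most counts held from 91.0% to 100% of the summed level, and it was labelled *white* RNAi for each. They were chosen for this concentration, and its share by label was not taken over all insertions or all features. In all, 73 insertions were at 0 in 3 libraries. INE-1{}3212, in *nrm*, held 87.9% of its summed level in replicate 1 of *orb2* RNAi.

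Of the 641 insertions, 341 had enough counts for the test across all 13082 features. None passed edgeR's quasi-likelihood test with a Benjamini-Hochberg adjusted p under 0.05 and a log2 fold change beyond 0.5 in size, 0 higher and 0 lower, where 0.0% of all features tested were called higher and 0.0% lower. At an unadjusted p under 0.05 the same test gave 15 higher (4.4%), against 3.68% of all features, and 3 lower (0.88%), against 0.894% of all features. DESeq2 called 0 higher and 0 lower at the same adjusted limits, where it called 0.497% of all features higher and 0.161% lower. At an unadjusted p under 0.05, DESeq2 gave 3 higher (0.88%), against 3.24% of all features, and 3 lower (0.88%), against 1.77% of all features. Both libraries labelled *orb2* RNAi were above both labelled *white* RNAi for 63 of the 341 (18.5%), against 18.5% of all features, and below both for 31 (9.09%), against 11.7% of all features. The shares without overlap and the edgeR shares were near those of all features, and the DESeq2 shares were below them.

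The median log2 fold change of the 341 was 0.10, with quartiles at −0.53 and 0.80, and that of all features tested was 0.02. The fitted value was above 0 for 186 insertions and below 0 for 155. The fit included 14 insertions at 0 in both libraries labelled *white* RNAi and 2 at 0 in both labelled *orb2* RNAi, whose fitted values depend on the prior count. The median dispersion was 1.22 for the INE-1 insertions and 0.14 for all features, so the fitted spread between libraries of a label was larger for INE-1. These sets were not matched for count, and whether INE-1 differed from other features of low count was not tested. By location the median log2 fold change was 0.13 for 274 intronic, −0.03 for 59 intergenic and 0.70 for 8 exonic insertions.

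The insertions with the smallest p among those whose labels did not overlap were low in count. INE-1{}3976 (4, 1232923 to 1233072), in an intron of *Cadps*, had 29 and 44 counts in the libraries labelled *orb2* RNAi, against 0 and 0 in those labelled *white* RNAi. INE-1{}5389, in *CG11360*, had 34 and 23 counts, INE-1{}5081, near *CG8245*, had 38 and 18, INE-1{}3207, in *lncRNA:CR42646*, had 17 and 26, and INE-1{}4655, in *anne*, had 25 and 19, each in the libraries labelled *orb2* RNAi, against 0 and 0 in those labelled *white* RNAi. All 5 were at 0 in both libraries labelled *white* RNAi, so they passed the count filter only through the libraries labelled *orb2* RNAi. They were also chosen for a small p without overlap. With at least 10 counts in every library, 0 of 104 insertions were higher at an unadjusted p under 0.05 by edgeR's quasi-likelihood test. INE-1{}5389 overlaps other annotated transposons, whose reads it may share.

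In the other direction, INE-1{}5536 (4, 409488 to 409781), intergenic, had 0 and 0 counts in the libraries labelled *orb2* RNAi, against 26 and 11 in those labelled *white* RNAi. INE-1{}3130, in *Cda4*, had 0 and 0 counts in the libraries labelled *orb2* RNAi, against 49 and 7 in those labelled *white* RNAi. INE-1{}5230 (3R, 5518596 to 5518679), in an intron of *Nmdar1*, a subunit of the NMDA glutamate receptor, had 10 and 4 counts in the libraries labelled *orb2* RNAi, against 47 and 49 in those labelled *white* RNAi. Its log2 fold change was −3.44 ± 1.19 (SE), with an adjusted p of 1.00 by edgeR's quasi-likelihood test. INE-1{}5962, in *zfh2*, a zinc finger homeodomain gene of chromosome 4, had 2 and 9 counts in the libraries labelled *orb2* RNAi, against 52 and 18 in those labelled *white* RNAi. INE-1{}6005, in *Tdg*, had 14 and 17 counts in the libraries labelled *orb2* RNAi, against 40 and 51 in those labelled *white* RNAi. INE-1{}5536 and INE-1{}3130 passed the count filter only through the libraries labelled *white* RNAi. INE-1{}5230 and INE-1{}5962 were below the level that the filter of the test requires in both libraries labelled *orb2* RNAi. They too entered the test only through the libraries labelled *white* RNAi. None of the insertions in this direction passed the adjusted test.

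Host genes differed in how many insertions they held and how high these were. The intronic insertions lay in 202 genes, of which 113 held 1 insertion and 26 held 5 or more, and 60 of the genes were on chromosome 4. *Cadps* and *toy*, a Pax6 homolog of eye development, held 13 each. The 7 insertions in *CaMKII* summed to 53.7 and 51.5 CPM in the libraries labelled *orb2* RNAi, against 76.2 and 21.8 CPM in those labelled *white* RNAi, the highest sum of any host. The 13 insertions in *Cadps* summed to 22.1 and 17.7 CPM in the libraries labelled *orb2* RNAi, against 27.0 and 12.1 CPM in those labelled *white* RNAi. The 6 insertions in *gus* summed to 17.4 and 13.5 CPM in the libraries labelled *orb2* RNAi, against 18.7 and 13.1 CPM in those labelled *white* RNAi, and *gus* itself ran from 204 to 217 CPM. In *CaMKII*, *Cadps* and *gus* alike, the sum was highest in replicate 1 and lowest in replicate 2 of *white* RNAi.

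Among further hosts with high sums, *PMCA* is on chromosome 4 and *nrm* is on 3L. The 7 insertions in *nrm* summed to 17.6 and 14.5 CPM in the libraries labelled *orb2* RNAi, against 20.4 and 7.11 CPM in those labelled *white* RNAi. The 6 insertions in *PMCA* summed to 14.0 and 15.2 CPM in the libraries labelled *orb2* RNAi, against 16.9 and 5.79 CPM in those labelled *white* RNAi, and all 6 were lowest in replicate 2 of *white* RNAi. In both genes the summed insertions and the host were lowest in replicate 2 of *white* RNAi.

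*toy* and *unc-13* held copies at 0 in replicate 2 of *white* RNAi in shares near that of all intronic insertions, of which 308 of 470 were at 0 there. The 13 insertions in *toy* summed to 9.55 and 10.5 CPM in the libraries labelled *orb2* RNAi, against 13.5 and 4.51 CPM in those labelled *white* RNAi, and 8 of the 13 were at 0 in replicate 2 of *white* RNAi. The 7 insertions in *unc-13*, which primes synaptic vesicles for release, summed to 5.84 and 4.28 CPM in the libraries labelled *orb2* RNAi, against 8.33 and 2.74 CPM in those labelled *white* RNAi, with 5 at 0 in replicate 2 of *white* RNAi. *unc-13* itself had 791 and 771 CPM in the libraries labelled *orb2* RNAi, against 1173 and 424 CPM in those labelled *white* RNAi, the same order of libraries as its insertions. The 3 insertions in *CaMKI*, another calcium- and calmodulin-dependent kinase, were the most even of these hosts, at 8.10 and 7.47 CPM in the libraries labelled *orb2* RNAi, against 7.83 and 6.37 CPM in those labelled *white* RNAi.

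Copies in well-expressed hosts were counted more often. The share of intronic copies with at least 10 counts was 13.3% in hosts under 1 CPM, 21.8% from 1 to 10 CPM, 31.8% from 10 to 50 CPM and 55.8% at 50 CPM or more. Across 462 intronic insertions in protein-coding hosts, the Spearman correlation of insertion level per kb with host exon level per kb was 0.32, and it was 0.36 across 196 hosts. Insertions in a host share that host, and all points share the same 4 libraries. The median insertion was at 4.84% of the exon level per kb of its host. In hosts of at least 1 CPM, 11 of 449 insertions were above their host per kb.

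*AGO3*, which acts in piRNA silencing of transposons and is low in these brains, was one such host. It had 3.74 and 3.29 CPM in the libraries labelled *orb2* RNAi, against 4.25 and 5.001 CPM in those labelled *white* RNAi, and held 11 insertions of 25 copies, which summed to 6.53 and 4.79 CPM in the libraries labelled *orb2* RNAi, against 8.47 and 1.46 CPM in those labelled *white* RNAi. Per kb they were at 169% of its exon level. INE-1{}3469, in *CG9380*, was the farthest above its host, at 52.8 CPM per kb against 1.56 CPM per kb of exon. It summed to 3.82 and 2.95 CPM in the libraries labelled *orb2* RNAi, against 3.52 and 7.65 CPM in those labelled *white* RNAi, and was highest in replicate 2 of *white* RNAi. INE-1{}4267, in *mnb*, the DYRK1A kinase homolog, had 47.7 CPM per kb, against 20.1 CPM per kb for *mnb*. These 3 hosts were named after their values were seen.

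**Figure D5:**
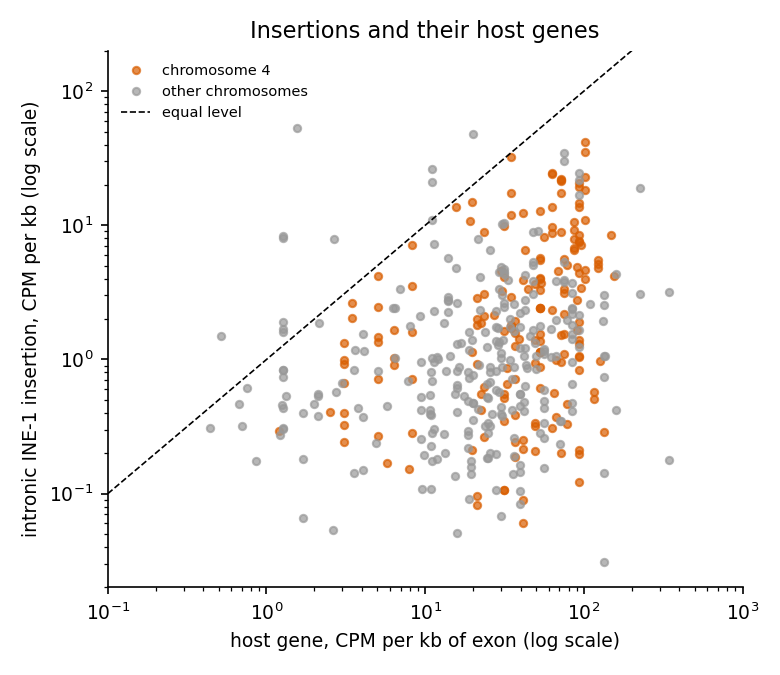
Mean level of 449 intronic INE-1 insertions (CPM per kb of insertion) against the level of their protein-coding host gene (CPM per kb of exon), for hosts of at least 1 CPM, both axes on a log scale, with chromosome 4 in orange and a dashed line at equal level. Most insertions lie below the line, and 11 lie above it.

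A list of genes from the text and tables of the study, of which *mGluR* and *shakB* are those it follows by imaging of mRNA, carried 54 INE-1 copies, 18 of which reached 10 counts. *shakB*, which encodes a gap junction protein, carried 8 copies with 1 count among them in all, so none was among the 641. Of the 18, *nrm* held 7, *mGluR*, a metabotropic glutamate receptor, 4, *nAChRalpha4*, a nicotinic acetylcholine receptor subunit, 4, and *anne* 3. In *nrm*, INE-1{}3224 (3L, 23035368 to 23035571) had 578 and 247 counts in the libraries labelled *orb2* RNAi, against 406 and 99 in those labelled *white* RNAi, and INE-1{}3239 had 166 and 97 counts in the libraries labelled *orb2* RNAi, against 226 and 10 in those labelled *white* RNAi. Both were lowest in replicate 2 of *white* RNAi, as *nrm* itself was, with 124 and 98.6 CPM in the libraries labelled *orb2* RNAi, against 156 and 58.3 CPM in those labelled *white* RNAi. The other *nrm* copies apart from INE-1{}3227 had at most 64 counts in all, and INE-1{}3212 had 58 and 6 counts in the libraries labelled *orb2* RNAi, against 0 and 0 in those labelled *white* RNAi. INE-1{}3212 thus reached the 10-count minimum only through the libraries labelled *orb2* RNAi.

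In *mGluR*, INE-1{}2895 (4, 944847 to 945125) had 50 and 28 counts in the libraries labelled *orb2* RNAi, against 68 and 55 in those labelled *white* RNAi, which was 0.657 and 0.490 CPM in the libraries labelled *orb2* RNAi, against 1.09 and 1.68 CPM in those labelled *white* RNAi. It was the only insertion in *mGluR* with over 26 counts, and its log2 fold change of −1.26 ± 0.91 (SE) did not pass edgeR's quasi-likelihood test (adjusted p = 1.00). *mGluR* itself had 49.5 and 60.1 CPM in the libraries labelled *orb2* RNAi, against 69.1 and 30.7 CPM in those labelled *white* RNAi, so in CPM the insertion was highest in replicate 2 and its host in replicate 1 of *white* RNAi. A further copy, INE-1{}2897 (4, 947634 to 947690), lies wholly within exon sequence of *mGluR* and had 0 counts in every library. The 4 insertions in *nAChRalpha4* each had 30 counts or fewer, and 3 of these had counts in a single library. INE-1{}3758 had 0 and 0 counts in the libraries labelled *orb2* RNAi, against 0 and 30 in those labelled *white* RNAi. In *anne*, INE-1{}4655 and INE-1{}4649 were at 0 in both libraries labelled *white* RNAi, while *anne* had 521 and 495 CPM in the libraries labelled *orb2* RNAi, against 594 and 341 CPM in those labelled *white* RNAi.

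Genes that act on heterochromatin, chromosome 4 or transposons were read from the same fit. All 20 on the list were tested, 0 passed the adjusted test, and 0 had an unadjusted p under 0.05. Their median log2 fold change was −0.04, with a range from −0.54 for *aub* to 0.61 for *piwi*, beside a median of 0.02 over all features. *egg*, which encodes a histone H3 lysine methyltransferase that acts on chromosome 4, had 108 and 104 CPM in the libraries labelled *orb2* RNAi, against 97.8 and 90.5 CPM in those labelled *white* RNAi. *Pof*, which encodes a protein that binds genes of chromosome 4, had 46.7 and 52.1 CPM in the libraries labelled *orb2* RNAi, against 55.1 and 54.9 CPM in those labelled *white* RNAi. *piwi*, of the germline piRNA pathway, had the lowest level of the list per length, 0.666 CPM per kb.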

How the data were processed

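PolyA RNA libraries of WL3 brains were sequenced by the authors, 2 per genotype. Per the labels and the methods, the authors trimmed reads with TrimGalore!, aligned them with HISAT2 to BDGP6.32 (Ensembl 105) and counted them per feature with featureCounts. The deposited values are raw counts for 23932 features and were not normalized. The 4 libraries sum to 227282504 counts, which is above the total of sequenced reads given in the methods. How reads that map to several copies, or lie on several features, were counted is not given in the sources used here, and neither is the strand setting, so levels of near-identical copies are uncertain. A library's depth sets a floor of 3 counts (0.0394 to 0.0915 CPM).

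Groups came from the sample labels. Insertions were placed against the BDGP6.54 annotation (Ensembl 115). Its positions were used as those of the same assembly release. Where several genes hold an insertion, the host is the gene sharing most exon bases, then a protein-coding gene, then the smallest. The tests were run with edgeR 4.0.16 under R 4.3.3 (TMM, filterByExpr, quasi-likelihood test, Benjamini-Hochberg adjustment over all features tested) and DESeq2 1.42.0 as an alternative. CPM are counts over the TMM-scaled library size. Summaries used Python 3.11.15, pandas 2.3.3 and scipy 1.17.1. Sums were compared by exact permutation over libraries. Alternatives were other normalizations, filters, thresholds, DESeq2, a replicate block and leaving out each library.

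The members and lists were chosen with earlier results of these data known. Insertions were named if among the 10 with the highest mean CPM, the 3 highest per location, the 5 per direction with the smallest p whose labels did not overlap, those in a list of genes from the study's text and tables, those at the 10-count limit, the 5 of at least 50 counts most concentrated in 1 library, or the 3 most even. No INE-1 sequence is shown, because none was read here.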

Additional observations from a re-analysis of the deposited data

How the results depend on the processing

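No insertion was called under any alternative run (0 higher and 0 lower in each of the other normalizations, filters, DESeq2, an adjusted p under 0.1, the replicate block and each library left out). Counts at an unadjusted p under 0.05, 15 higher and 3 lower with edgeR's quasi-likelihood test, depended on the setting. They were 3 higher of 641 without a filter beyond 10 counts (0.468%, against 2.38% of all features), 0 higher of 104 with at least 10 counts in every library (0.0%, against 1.56%) and 3 higher of 341 with DESeq2 (0.88%, against 3.24%). Without 1 library, with 427 to 489 insertions tested, they ran from 0 to 92 higher and from 0 to 24 lower. The highest were without replicate 1 of *white* RNAi, 92 of 431 higher (21.3%, against 17.6% of all features) and 24 lower (5.57%, against 11.3%), where replicate 2 is the only library of its label and its spread is assumed to be that of the other label. The median log2 fold change ran from −0.40 to 5.65 over the libraries left out, with 5.65 likewise without replicate 1 of *white* RNAi, and was −0.09 with at least 10 counts in every library. The log2 ratio of summed levels ran from −0.37 to 0.66. With a minimum of 50 counts, 79.5% of insertions were intronic, against 73.3%. The cause of these shifts was not tested.

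The replicate numbers of the labels are not stated to pair libraries. The differences between replicates 1 and 2 of the 2 labels correlated at 0.23 (Pearson) across 13082 features, and 2 pairs cannot show pairing. With the replicate block, 1 of 341 insertions was higher (0.293%, against 3.05% of all features) and 0 lower (0.0%, against 1.35%) at an unadjusted p under 0.05, the median log2 fold change was 1.03, and that of INE-1{}3388 was 0.0080, against −0.13 without it.

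Among single insertions that the text names, no alternative gave a change past the test, but the sign of the log2 fold change turned for some when a library was left out. Over the 4 libraries left out, the values ran from −0.12 to 0.61 for INE-1{}2087, from −0.45 to 1.03 for INE-1{}3227, from −0.60 to 1.37 for INE-1{}3381, from −0.42 to 2.15 for INE-1{}3385, from −0.64 to 0.68 for INE-1{}3388, from −0.75 to 0.14 for INE-1{}4180 and from −0.090 to 0.82 for INE-1{}5345. The library whose loss turned the sign was replicate 2 of *white* RNAi for INE-1{}3381, INE-1{}3385, INE-1{}4180 and INE-1{}5345, either replicate 2 for INE-1{}3227, and replicate 1 of *orb2* RNAi for INE-1{}2087 or of *white* RNAi for INE-1{}3388. Of the 641 insertions, 300 had too few counts for the test.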
